A study of Homo sapiens with 21 samples.

Results

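AP-1 is a family of basic leucine zipper transcription factors that bind DNA as dimers of a FOS, JUN, ATF or BATF protein. FOS proteins need a partner, most often a JUN protein, whereas JUN proteins can also pair with one another. Many AP-1 genes, together with the zinc finger factor EGR1, are immediate early genes, whose transcription is switched on within minutes of a signal, through ERK and p38 kinases, serum response factor and the ELK factors, without new protein synthesis. In myeloid cells these factors respond to growth factors, stress and inflammatory signals, and EGR1 is known from monocyte differentiation.

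The 10 genes described here were taken by name: the FOS family (FOS, FOSB, FOSL1 and FOSL2), the JUN family (JUN, JUNB and JUND), ATF3, BATF and EGR1. All 10 were found among the 58174 gene identifiers of the files, and all 10 passed the filter on low counts. RNA was sequenced from 21 libraries of OCI-AML5, a human acute myeloid leukaemia cell line, in 7 groups of 3. The study addressed how leukaemia cells respond to UM171, a small molecule that expands human haematopoietic stem cells in culture, and what the response owes to EPCR, the surface receptor encoded by PROCR. Control cells received the solvent DMSO, with a labelled time of 72 h, or UM171 for 6, 24, 48 or 72 h. Cells carrying a guide against EPCR (sgEPCR), named in the labels as a clone expressing sgEPCR and as EPCR null or knockdown, received DMSO or UM171 for 24 h. The sgEPCR cells are described elsewhere as 3 independent clones, and the labels do not say which library came from which clone. The labels give UM171 at 500 nM for all treated libraries, whereas a figure legend of the study names a lower dose. They also name DMEM with serum, whereas the study's methods name a medium with GM-CSF, a cytokine that itself activates immediate early genes. No guide is named in the labels for the control cells. DMSO was given for 72 h to control cells and for 24 h to sgEPCR cells. Genotype and time in DMSO therefore cannot be told apart in the comparison of those groups, or in a difference of responses that uses both. In control cells hours of UM171 and hours in culture differ together except at 72 h. Nothing in the labels says that the 3 control libraries of a group came from separate cultures, so that p-values measure the spread between these libraries, which may be technical.

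Library totals ranged from 24.3 to 51.5 M counts. PROCR itself was at 3.37, 4.30 and 3.38 TPM in DMSO and at 48.5 TPM in all 3 libraries after 24 h of UM171, but at 8.94, 4.23 and 8.41 TPM after 24 h of UM171 in sgEPCR cells. In sgEPCR DMSO it was at 2.30, 4.53 and 3.93 TPM, which overlapped control DMSO, so that its mRNA level without UM171 does not separate the genotypes. The labelled cell type was checked against markers. Of the myeloid genes, LYZ, SPI1 and CD33 were detected in all libraries with medians of 1070, 235 and 150 TPM. MPO had a median of 3.38 TPM and a lowest value of 0.48 TPM, and CD14 did not exceed 0.42 TPM. The B cell gene MS4A1 and the platelet gene PF4 were listed at 0 throughout, and the T cell gene CD3E did not exceed 0.11 TPM. Other genes of these lineages were present, as CD3D, CD79A and the megakaryocyte gene ITGA2B reached 18.8, 40.4 and 20.2 TPM. In 2 libraries, sgEPCR DMSO replicate 1 and sgEPCR UM171 replicate 2, mitochondrial genes took 35.9% and 32.2% of counts, against 7.73% to 13.5% in the other 19. In both of these libraries the TPM of FOS, FOSB, FOSL2, JUN, JUNB, JUND, ATF3 and BATF was the lowest of its group, and their part in the sgEPCR values was not tested beyond leaving them out. Values without these 2 libraries are therefore given beside the sgEPCR results they change.

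The promoters of 3 of the members with large changes described below are shown. EGR1 rose in every UM171 group, and FOSB and JUND rose in sgEPCR cells but not in control cells at 24 h. ATF3 and JUN, which are not shown, rose more in sgEPCR cells than JUND (log2 fold changes of 2.29 and 1.87 against 1.47). A link between these motifs and the changes was not tested. The sequences are the 250 bases upstream of the RefSeq start site in GRCh38.p14, written 5′ to 3′ on the strand of the gene. Capitals mark CArG boxes, the binding motif of serum response factor, and TGACG or its reverse complement, the core of the motif bound by CREB and ATF dimers.
EGR1, chr5:138465229-138465478, plus strand: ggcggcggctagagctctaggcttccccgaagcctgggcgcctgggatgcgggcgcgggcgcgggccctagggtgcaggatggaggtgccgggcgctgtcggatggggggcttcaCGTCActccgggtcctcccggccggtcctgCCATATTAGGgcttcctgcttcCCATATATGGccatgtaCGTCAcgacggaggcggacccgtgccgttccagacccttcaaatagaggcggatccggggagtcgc
FOSB, chr19:45467746-45467995, plus strand: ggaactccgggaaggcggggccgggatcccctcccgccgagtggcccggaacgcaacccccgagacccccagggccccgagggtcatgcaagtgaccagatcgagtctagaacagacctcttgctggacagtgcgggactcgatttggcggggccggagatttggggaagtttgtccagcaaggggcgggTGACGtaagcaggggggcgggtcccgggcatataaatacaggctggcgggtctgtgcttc
JUND, chr19:18281623-18281872, minus strand: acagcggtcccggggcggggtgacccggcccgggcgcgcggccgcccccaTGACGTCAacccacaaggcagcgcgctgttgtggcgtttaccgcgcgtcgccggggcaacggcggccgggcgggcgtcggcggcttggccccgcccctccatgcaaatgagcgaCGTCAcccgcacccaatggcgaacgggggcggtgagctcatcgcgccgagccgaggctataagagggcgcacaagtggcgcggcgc
In these windows EGR1 had 2 CArG boxes, which began 105 and 83 bases upstream of the start site, and 2 copies of TGACG. FOSB had 1 copy of TGACG. JUND had 3 matches to TGACG, of which 2 overlap within 1 palindromic TGACGTCA.

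RefSeq promoters were available for 9 of the 10 genes, with 2 windows for ATF3 and none here for FOSL1. Both strands were searched in the 250 upstream bases. A CArG box was found for 1 of the 9 genes, EGR1, against 1.16% of 35116 windows of the same length. The full TGACGTCA was found for JUND only, against 1.65% of windows, and TGACG, which also counts the copies inside TGACGTCA, was found for 7 genes, against 21.2% of windows. The AP-1 motif TGANTCA (6.57% of windows) and the EGR1 motif GCGTGGGCG (0.72% of windows) were found for none. ATF3 and BATF had no match to any of these motifs. A match describes letters in this window and not a bound site, and lack of a match says nothing of sequence further upstream.

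In DMSO the 10 genes covered a wide range of levels, compared here as TPM, which accounts for transcript length. BATF, an AP-1 protein without a transactivation domain, and FOSL2 were the highest, at 92.0 ± 3.95 and 88.7 ± 5.12 TPM (SD, n = 3), and their libraries overlapped. JUNB at 74.5 ± 2.45 TPM and JUND at 70.2 ± 3.24 TPM (SD, n = 3) followed, without overlap between them. FOS, FOSL1 and JUN lay together at 32.0 ± 4.14, 28.3 ± 1.30 and 28.1 ± 2.40 TPM (SD, n = 3), with overlapping libraries. ATF3, a stress-induced factor, was at 8.38 ± 1.66 TPM, EGR1 at 1.94 ± 0.107 TPM and FOSB at 0.457 ± 0.0907 TPM (SD, n = 3). FOSB was counted by 32 to 37 reads per DMSO library, and its small changes are accordingly imprecise.

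The order was different after UM171. At 72 h in control cells FOSL2 led at 151 ± 6.48 TPM and JUND came next at 124 ± 8.61 TPM (SD, n = 3), and neither overlapped the other or JUNB at 82.7 ± 4.98 TPM. BATF stood at 59.1 ± 3.96 TPM and JUN at 37.1 ± 0.882 TPM. EGR1 at 26.1 ± 0.515 TPM and ATF3 at 24.6 ± 2.02 TPM overlapped, and FOS (14.1 ± 0.766 TPM), FOSL1 (8.23 ± 1.18 TPM) and FOSB (0.930 ± 0.497 TPM) were the lowest. In sgEPCR cells after 24 h of UM171, JUND was the highest at 209 ± 72.5 TPM (SD, n = 3), and its lowest library, at 126 TPM, was above the highest library of any other member there. JUNB at 76.1 ± 37.2 TPM, EGR1 at 72.0 ± 3.76 TPM and JUN at 60.0 ± 24.9 TPM overlapped.

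**Figure D1:**
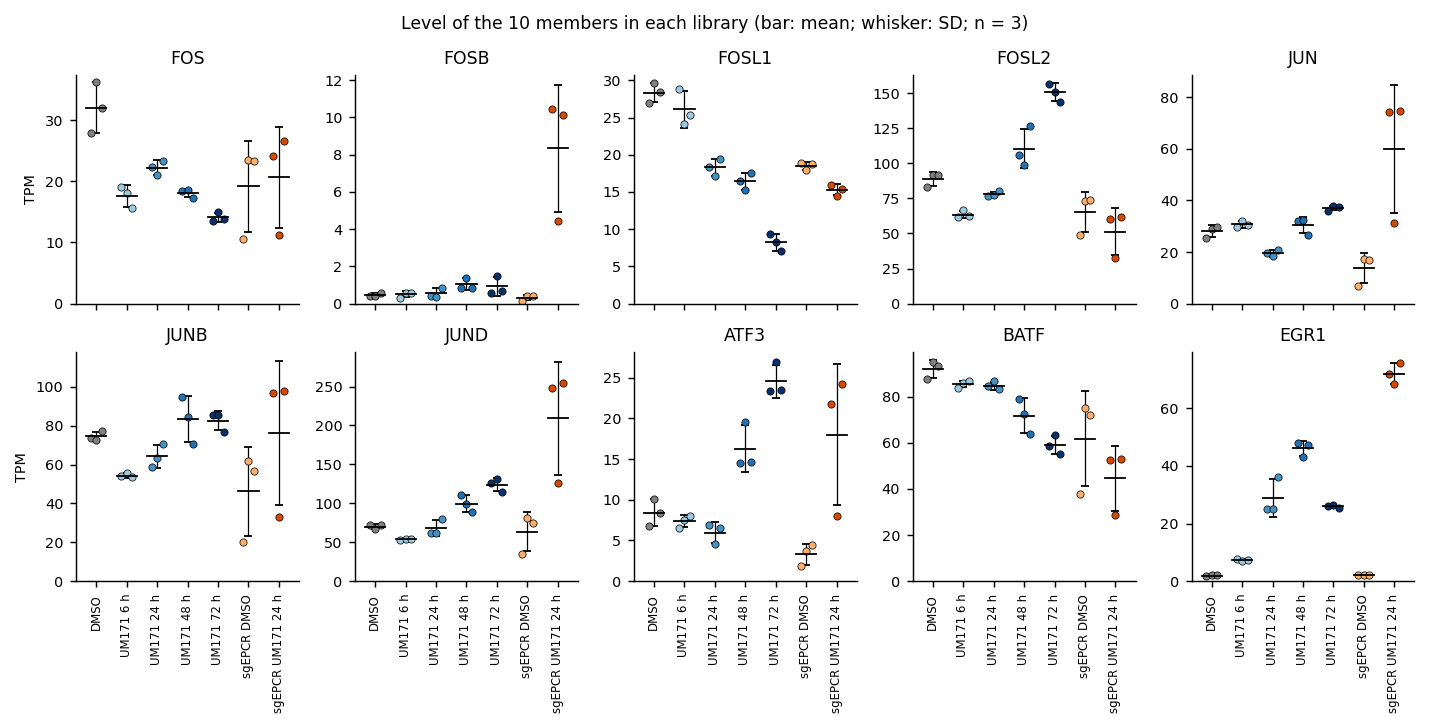
TPM of each of the 10 genes (y axis, linear, a separate scale for each gene) in the 7 groups (x axis), with 1 point per library in replicate order, the mean as a bar and the SD as a whisker (n = 3). EGR1 rises from 1.94 TPM in DMSO to 46.1 TPM at 48 h, and in the sgEPCR groups the low points of FOSB, JUN, JUNB, JUND and ATF3 are the 2 libraries rich in mitochondrial counts.

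The time course in control cells asked how the members changed with hours of UM171. Differences are log2 fold changes with their SE from edgeR's quasi-likelihood test on normalised counts, with Benjamini-Hochberg adjusted p-values over all 16575 genes tested. A gene was said to rise or fall at an adjusted p under 0.05. A stricter call needed more than a 2-fold change with an adjusted p under 0.0001, the limits used in the study. At 6 h 2 of 10 members passed the strict call, EGR1 upward and FOS downward, against 7.03% of all genes. At 24 h and at 48 h EGR1 alone passed it, against 13.7% and 16.4% of all genes. At 72 h 4 members passed, EGR1 and ATF3 upward and FOS and FOSL1 downward, against 20.8%. At an adjusted p under 0.05, 1 member rose and 7 fell at 6 h (62.1% of all genes passed in either direction), 1 rose and 7 fell at 24 h (69.7%), 7 rose and 3 fell at 48 h (72.1%), and 6 rose and 3 fell at 72 h (75.6%). From 6 to 72 h the median log2 fold change of the 10 members was −0.42, −0.21, 0.20 and 0.52, beside −0.01 to 0.02 over all genes. The 4 comparisons share the same DMSO libraries. Total count scaling moved the median of all genes at 6 h by 0.18, and with it FOSL1, ATF3 and BATF no longer passed at 6 h (adjusted p = 0.36, 0.22 and 0.19) while JUN did, upward, so that 2 rose and 4 fell. In limma on log2(TPM + 1) 1 rose and 4 fell at 6 h, where the same 3 genes did not pass (adjusted p = 0.33, 0.44 and 0.29), and 1 rose and 4 fell at 24 h, where FOSL2, JUNB and BATF did not pass (adjusted p = 0.072, 0.071 and 0.21). These 3 also missed the limit at 24 h with all 21 libraries in 1 fit (adjusted p = 0.12, 0.15 and 0.065). At 48 h JUN and JUNB did not pass in limma (adjusted p = 0.27 and 0.19), and 5 rose and 3 fell.

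EGR1, which activates or represses transcription at GC-rich sites, was the member with the largest change at every time. It was at 1.82, 1.96 and 2.03 TPM in DMSO, at 7.57, 6.85 and 7.37 TPM at 6 h, at 24.9, 25.0 and 36.3 TPM at 24 h, at 48.1, 43.2 and 47.1 TPM at 48 h, and at 26.1, 26.6 and 25.5 TPM at 72 h. No UM171 library overlapped DMSO, and the level was highest at 48 h. EGR1 was 3.35-fold higher than in DMSO at 6 h (log2 fold change 1.74, SE 0.17, adjusted p = 1.2e-07) and 24.4-fold higher at 48 h (4.61, SE 0.15, adjusted p = 4.6e-14). It rose from 6 to 24 h by 2.10 (SE 0.13, adjusted p = 3.1e-10) and from 24 to 48 h by 0.77 (SE 0.11, adjusted p = 3.5e-05), and it then fell by 0.93 (SE 0.11, adjusted p = 2.4e-06) to 72 h, all on the log2 scale.

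FOS, the prototype partner of JUN, went the other way. Its TPM was 27.9, 36.2 and 32.0 in DMSO, 19.2, 18.1 and 15.7 at 6 h, 22.3, 21 and 23.4 at 24 h, 18.4, 18.6 and 17.3 at 48 h and 13.5, 14.95 and 13.8 at 72 h. Every UM171 library was below every DMSO library. FOS fell by 1.03 at 6 h (SE 0.07, adjusted p = 1.3e-09) and by 1.26 at 72 h (SE 0.07, adjusted p = 1.8e-11) on the log2 scale. Between these times it was partly higher again, by 0.49 from 6 to 24 h (SE 0.07, adjusted p = 6.4e-06). The change at 6 h lies close to the 2-fold limit, and it no longer passed the strict call with total count scaling (−0.85) or without DMSO replicate 2 (−0.98). The first hour after UM171, when immediate early transcripts usually peak, was not sampled.

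FOSL1, also known as FRA-1, is a FOS protein that lacks a transactivation domain. Its TPM was 27.0, 29.6 and 28.5 in DMSO, 28.8, 24.1 and 25.4 at 6 h, 18.4, 17.2 and 19.4 at 24 h, 16.5, 15.3 and 17.6 at 48 h and 9.37, 8.29 and 7.02 at 72 h. The libraries overlapped DMSO at 6 h, where the value of −0.28 (SE 0.10, adjusted p = 0.023) became −0.10 with total count scaling (adjusted p = 0.36), and they lay below it from 24 h on. FOSL1 fell by 0.68 at 24 h (SE 0.10, adjusted p = 1.7e-05), by 0.80 at 48 h (SE 0.11, adjusted p = 2.9e-06) and by 1.83 at 72 h (SE 0.11, adjusted p = 1.3e-10). Its step from 48 to 72 h, −1.03 (SE 0.12, adjusted p = 1.2e-06), was the only strict call among the members for that step, against 3.35% of all genes. This step fell just short of 2-fold without UM171 48 h replicate 3 (−0.92) or UM171 72 h replicate 3 (−0.91), so that no member was then called.

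FOSL2, or FRA-2, another FOS protein without a transactivation domain, fell first and rose later. Its TPM was 82.8, 91.5 and 91.8 in DMSO and 61.5, 66.4 and 62.6 at 6 h, all below DMSO. At 72 h it was 156.8, 151.1 and 143.9 TPM, all above DMSO. The log2 fold change was −0.69 at 6 h (SE 0.04, adjusted p = 1.4e-10), −0.17 at 24 h (SE 0.04, adjusted p = 5.3e-04), 0.21 at 48 h (SE 0.04, adjusted p = 5.3e-05) and 0.71 at 72 h (SE 0.04, adjusted p = 9.9e-12). None of these changes reached 2-fold. FOSL2 overlaps FOSL2-AS1 on the other strand, which did not exceed a mean of 0.02 TPM in any group.

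FOSB, which is usually induced with FOS, remained low in control cells. It was at 0.42, 0.39 and 0.56 TPM in DMSO, at 0.86, 1.40 and 0.86 TPM at 48 h and at 0.59, 1.5 and 0.70 TPM at 72 h. The log2 fold change was 1.09 at 48 h (SE 0.24, adjusted p = 5.6e-04) and 0.74 at 72 h (SE 0.24, adjusted p = 0.01), and without UM171 72 h replicate 2 the rise at 72 h was 0.51 with an adjusted p of 0.077. At 6 and 24 h its change did not pass the test (−0.49, SE 0.27, adjusted p = 0.13, and 0.00, SE 0.26, adjusted p = 0.99).

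Each gene of the JUN family fell and later rose, JUND and JUNB with their lowest level at 6 h and JUN at 24 h. JUND, the JUN protein with the steadiest expression in most cells, was at 72.2, 66.5 and 71.9 TPM in DMSO, at 53.3, 54.4 and 54.4 TPM at 6 h and at 126.6, 130.9 and 114.3 TPM at 72 h. Neither UM171 group overlapped DMSO. JUND fell by 0.56 at 6 h (SE 0.08, adjusted p = 2.3e-05) and rose by 0.54 at 48 h (SE 0.08, adjusted p = 1.7e-05) and by 0.75 at 72 h (SE 0.08, adjusted p = 2.4e-07). JUN, which can activate its own promoter, was at 25.3, 29.1 and 29.8 TPM in DMSO and at 19.5, 18.3 and 21 TPM at 24 h, a fall of 0.56 without overlap (SE 0.05, adjusted p = 3.3e-08). At 72 h JUN stood at 36.1, 37.7 and 37.5 TPM, a rise of 0.33 (SE 0.05, adjusted p = 1.1e-05). At 6 h the value for JUN was −0.03 (SE 0.05, adjusted p = 0.58) and it turned to 0.15 with total count scaling (adjusted p = 0.037), to 0.06 with upper quartile scaling and to 0.13 in limma. JUNB, often an antagonist of JUN, was at 73.9, 72.5 and 77.3 TPM in DMSO and at 53.9, 55.7 and 53.4 TPM at 6 h, a fall of 0.62 (SE 0.07, adjusted p = 6.6e-07), and at 48 h at 94.7, 84.7 and 70.8 TPM, which overlapped DMSO. JUNB rose at 48 h by 0.19 (SE 0.07, adjusted p = 0.018), and this call was lost without DMSO replicate 2 or UM171 48 h replicate 1 (adjusted p = 0.068 and 0.13). At 72 h its value was 0.08 (SE 0.07, adjusted p = 0.29). JUNB lies within HOOK2, a gene of the other strand, and the strand setting of the counting is not given in the sources used here. HOOK2 had a mean of 11.2 TPM in DMSO, 20.6 TPM at 48 h (log2 fold change 0.86, SE 0.07, adjusted p = 5.2e-09) and 28.7 TPM at 72 h (1.35, SE 0.07, adjusted p = 7.0e-12), and its part in the late values of JUNB was not tested.

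ATF3, which is induced by stress and cytokines and mostly represses, was at 6.74, 10.1 and 8.35 TPM in DMSO, at 6.86, 4.54 and 6.51 TPM at 24 h, at 14.5, 19.6 and 14.7 TPM at 48 h and at 23.4, 26.9 and 23.4 TPM at 72 h. The libraries at 48 and 72 h lay above all DMSO libraries. ATF3 fell by 0.47 at 24 h (SE 0.10, adjusted p = 5.8e-04) and rose by 0.89 at 48 h (SE 0.10, adjusted p = 2.1e-07) and by 1.54 at 72 h (SE 0.09, adjusted p = 8.3e-11). From 24 to 48 h it rose 2.57-fold (log2 fold change 1.36, SE 0.10, adjusted p = 1.1e-08), the only strict call among the members for that step, against 2.85% of all genes. From 6 to 24 h the only strict call was EGR1, against 10% of all genes. BATF went from 87.6, 95.3 and 93.3 TPM in DMSO to 58.7, 63.2 and 55.4 TPM at 72 h, without overlap. BATF was below DMSO at every time, by −0.33 at 48 h (SE 0.05, adjusted p = 1.9e-05) and −0.71 at 72 h (SE 0.05, adjusted p = 1.1e-09). Between 6 and 24 h its step was 0.12 (SE 0.05, adjusted p = 0.049), just under the limit, although its mean TPM was 85.5 and then 84.8. Against DMSO it went from −0.09 to −0.12 with total count scaling and from −0.10 to −0.12 in limma. The step itself is not given here with other processing. Its early values depended on the processing. At 6 h BATF had −0.27 (SE 0.05, adjusted p = 2.0e-04), but −0.09 with total count scaling (adjusted p = 0.19) and −0.10 in limma (adjusted p = 0.29). At 24 h it had −0.15 (SE 0.05, adjusted p = 0.013), and the call was lost in limma (adjusted p = 0.21), with total count scaling (0.06), without a filter (0.055), with all 21 libraries (0.065) and without DMSO replicate 2 (0.059).

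**Figure D2:**
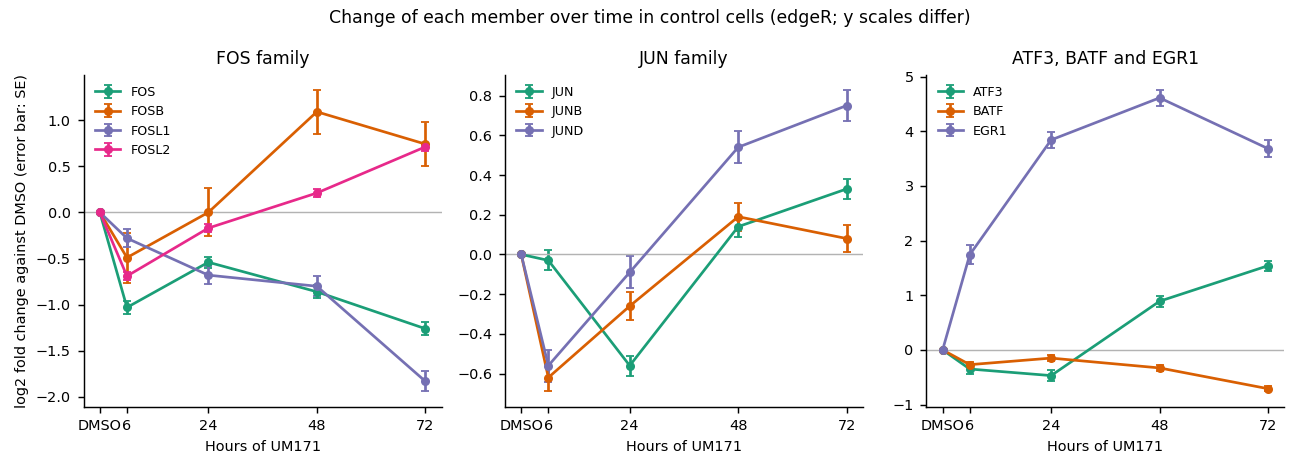
Log2 fold change against DMSO (y axis, a separate scale in each panel, error bars are SE) by hours of UM171 (x axis) in control cells, from edgeR with 3 libraries per group and DMSO set to 0. FOS and FOSL1 end at −1.26 and −1.83, whereas FOSL2, JUND and ATF3 go from below 0 at 6 h to 0.71, 0.75 and 1.54 at 72 h.

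The makeup of both families moved with these changes. FOSL2 took 59.4% ± 1.14 of the FOS family TPM in DMSO and 86.6% ± 0.608 at 72 h (SD, n = 3), while the share of FOS went from 21.4% ± 1.42 to 8.11% ± 0.550 and that of FOSL1 from 19.0% ± 0.5 to 4.72% ± 0.477. The libraries of these groups did not overlap for any of the 3 genes. The summed TPM of the FOS family was 138, 158 and 153 in DMSO and 174 ± 7.62 (SD, n = 3) at 72 h, where the lowest library was at 165. In the JUN family JUND went from 40.6% ± 1.34 in DMSO to 50.8% ± 0.776 at 72 h and JUNB from 43.1% ± 0.0327 to 33.9% ± 0.450 (SD, n = 3). JUN had its largest share, 22.1% ± 0.487, at 6 h. These shares are descriptions without a test, since the genes were already tested singly, and mRNA shares say nothing of protein.

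In sgEPCR cells, FOSB, JUN, JUND, ATF3 and EGR1 passed the strict call upward after 24 h of UM171, 5 of 10 members against 10.3% of the 15901 genes tested in the 12 libraries of the genotype comparison. At an adjusted p under 0.05, 6 members rose and 2 fell, against 52.1% of all genes in either direction. FOSL2 fell by 0.52 (SE 0.11, adjusted p = 0.0023) and BATF fell by 0.73 (SE 0.07, adjusted p = 1.1e-05), and JUNB rose by 0.47 (SE 0.17, adjusted p = 0.036). Without the 2 libraries rich in mitochondrial counts the values were −0.45 for FOSL2, −0.69 for BATF and 0.51 for JUNB, all past the limit. In limma none of these 3 passed (adjusted p = 0.35 for FOSL2, 0.32 for BATF and 0.35 for JUNB), and with total count scaling FOSL2 and JUNB did not (adjusted p = 0.33 and 0.13). The call for JUNB was also lost without sgEPCR DMSO replicate 1 or 3 or sgEPCR UM171 replicate 1 or 3, with adjusted p-values of 0.063 to 0.13, and HOOK2 rose in this comparison by 0.52 (SE 0.17, adjusted p = 0.027). FOS had a value of 0.04 (SE 0.15, adjusted p = 0.84). FOSL1 had a value of −0.59 (SE 0.30, adjusted p = 0.12), and without the 2 libraries rich in mitochondrial counts it fell by 0.44 with an adjusted p of 5.4e-05.

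FOSB was at 0.15, 0.39 and 0.38 TPM in sgEPCR DMSO and at 10.5, 4.42 and 10.1 TPM in sgEPCR UM171. All 3 treated libraries were above every other library of the series, the next highest of which was at 1.5 TPM. FOSB was 25.3-fold higher (log2 fold change 4.66, SE 0.21, adjusted p = 4.6e-08). Its locus overlaps ERCC1 on the other strand, which was at 67.4 TPM in sgEPCR UM171 and 63.8 TPM in sgEPCR DMSO (log2 fold change −0.16, SE 0.21, adjusted p = 0.55).

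JUN was at 6.98, 17.1 and 16.9 TPM in sgEPCR DMSO and at 74.2, 31.2 and 74.6 TPM in sgEPCR UM171, and JUND was at 34.4, 81.4 and 75.3 TPM and at 247.6, 125.9 and 255.0 TPM. Neither gene overlapped between the groups, although the lowest value of each group was that of a library rich in mitochondrial counts. JUN rose 3.67-fold (log2 fold change 1.87, SE 0.10, adjusted p = 1.4e-07) and JUND rose 2.78-fold (1.47, SE 0.10, adjusted p = 6.5e-07). ATF3 was at 1.85, 3.68 and 4.39 TPM in sgEPCR DMSO and at 21.8, 8.05 and 24.2 TPM in sgEPCR UM171, a rise of 4.90-fold (2.29, SE 0.11, adjusted p = 5.3e-08). Without the 2 libraries rich in mitochondrial counts the log2 fold changes were 4.78 for FOSB, 1.92 for JUN, 1.48 for JUND and 2.32 for ATF3.

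EGR1 rose in sgEPCR cells as well. It was at 2.09, 1.99 and 2.18 TPM in sgEPCR DMSO and at 72.0, 68.3 and 75.8 TPM in sgEPCR UM171, above the 24.9 to 36.3 TPM of control cells at 24 h and without overlap. Its rise was 28.3-fold (log2 fold change 4.82, SE 0.37, adjusted p = 1.6e-06), and without the 2 libraries rich in mitochondrial counts the value was 4.94. The TPM of EGR1 and of FOSL1 in those 2 libraries lay close to that of the other libraries of the group.

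The next comparison asked whether the response to UM171 at 24 h differed between sgEPCR and control cells, as the difference of both log2 responses. The control response sets 24 h of UM171 against 72 h of DMSO, and the sgEPCR response uses 24 h of both. Genotype and time in DMSO cannot be told apart in this difference. FOSB, ATF3, JUN and JUND passed the strict call with a more positive response in sgEPCR cells, 4 of 10 members against 7.77% of all genes. The difference was 4.63 for FOSB (SE 0.29, adjusted p = 9.5e-07), 2.76 for ATF3 (SE 0.15, adjusted p = 4.2e-07), 2.43 for JUN (SE 0.14, adjusted p = 6.9e-07) and 1.55 for JUND (SE 0.14, adjusted p = 1.0e-05). In control cells at 24 h, in the same fit, ATF3 and JUN fell by 0.47 and 0.55, and FOSB and JUND had values of 0.03 and −0.07 with adjusted p-values of 0.93 and 0.58. At an adjusted p under 0.05, 7 members differed, 6 of them with the more positive response in sgEPCR cells, against 45% of all genes. JUNB (0.71, SE 0.23, adjusted p = 0.03), FOS (0.58, SE 0.22, adjusted p = 0.05 after rounding) and BATF (−0.58, SE 0.10, adjusted p = 8.7e-04) were the other 3. For EGR1 the difference was 0.97 (SE 0.46, adjusted p = 0.11) and did not pass the test, and without the 2 libraries rich in mitochondrial counts it was 1.11 with an adjusted p of 0.0014.

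These 4 strict calls held without any single library and without both libraries rich in mitochondrial counts, where the differences were 4.81 for FOSB, 2.80 for ATF3, 2.49 for JUN and 1.57 for JUND. With the replicate block 0 of the 4 passed the strict limit, while at an adjusted p under 0.05 4 members were more positive and 1 was more negative. With total count scaling JUN and JUND missed the strict limit, with adjusted p-values of 3.2e-04 and 0.0015. In limma on log2(TPM + 1), none passed it, and the differences were 2.68 for FOSB (adjusted p = 0.0017), 2.49 for ATF3 (adjusted p = 0.015), 2.55 for JUN (adjusted p = 0.012) and 1.78 for JUND (adjusted p = 0.04). The other 3 differences were less stable. FOS lost its call without 11 of the 12 single libraries (adjusted p = 0.054 to 0.12) and JUNB without 8 of the 12 (adjusted p = 0.051 to 0.076). With total count scaling JUNB, FOS and BATF had adjusted p-values of 0.17, 0.22 and 0.15, and in limma of 0.42, 0.49 and 0.66. Without both libraries rich in mitochondrial counts all 10 members differed, 8 with the more positive response in sgEPCR cells, with EGR1, FOSL1 (0.24, adjusted p = 0.024) and FOSL2 (−0.28, adjusted p = 2.2e-04) added. The share of all genes that differed in that smaller fit was not counted, so this count has no background beside it.

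**Figure D3:**
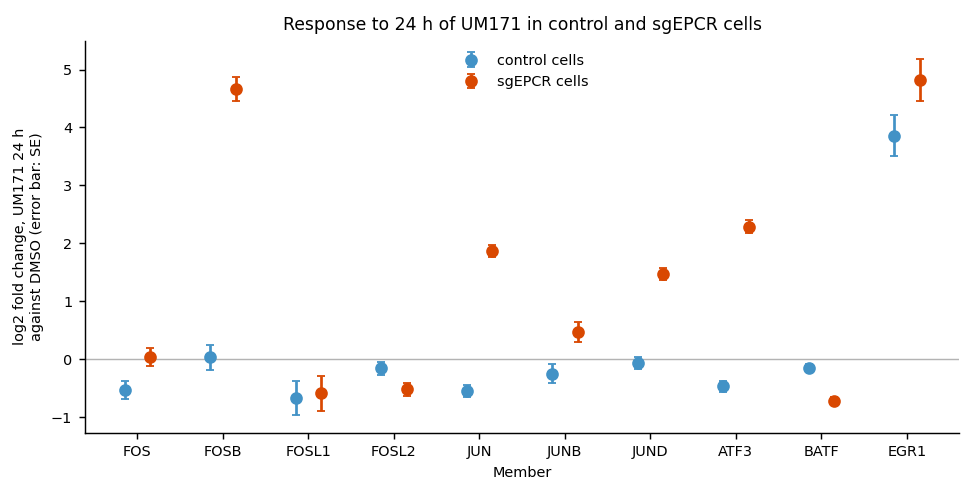
Log2 fold change of 24 h of UM171 against DMSO (y axis, error bars are SE, edgeR, 3 libraries per group) for each of the 10 genes (x axis) in control cells (blue) and sgEPCR cells (orange). FOSB, JUN, JUND and ATF3 differ between the genotypes, by 4.63, 2.43, 1.55 and 2.76, and EGR1 is high in both.

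In direct comparisons of the genotypes, 4 members passed the strict call with UM171 and none with DMSO. With DMSO the share was 2.84% of all genes, 4 members had an unadjusted p under 0.05, and at an adjusted p under 0.05 3 members were lower in sgEPCR cells, against 33.7%. These were ATF3 (−0.83, SE 0.10, adjusted p = 1.5e-04), JUN (−0.66, SE 0.10, adjusted p = 5.1e-04) and FOS (−0.56, SE 0.15, adjusted p = 0.016), and DESeq2 likewise made no strict call. In limma on log2(TPM + 1) the adjusted p-values of ATF3, JUN and FOS were 0.086, 0.099 and 0.18, and FOS also lost its call without DMSO replicate 2 or 3 (adjusted p = 0.065 and 0.055). FOSL1 had a value of −0.07 (SE 0.29, adjusted p = 0.87), although its TPM of 18.8, 17.9 and 18.8 in sgEPCR DMSO lay below the 27.0 to 29.6 of control DMSO, and without the 2 libraries rich in mitochondrial counts it fell by 0.54 with an adjusted p of 3.2e-06. Without these libraries FOSL2 (−0.15, adjusted p = 0.0027), JUNB (−0.23, adjusted p = 0.0041) and BATF (−0.22, adjusted p = 4.7e-04) were also lower and JUND (0.26, adjusted p = 0.014) was higher, so that 7 members were lower and 1 was higher in sgEPCR cells. With UM171 for 24 h, FOSB (4.39, SE 0.20, adjusted p = 1.9e-07), ATF3 (1.92, SE 0.10, adjusted p = 4.8e-07), JUND (1.80, SE 0.10, adjusted p = 5.7e-07) and JUN (1.77, SE 0.10, adjusted p = 6.5e-07) were higher in sgEPCR cells, 4 of 10 members against 4.46% of all genes. At an adjusted p under 0.05, 7 differed, against 43%, and these included EGR1 (1.63, SE 0.31, adjusted p = 0.0018), FOSL2 (−0.55, SE 0.11, adjusted p = 0.0022) and BATF (−0.73, SE 0.07, adjusted p = 2.2e-05). With UM171 the 4 strict calls became 1 with total count scaling, 0 with the replicate block and 0 in limma. In limma FOSL2 and BATF also missed an adjusted p of 0.05 (0.11 and 0.052), as FOSL2 did with total count scaling (0.083). Without the 2 libraries rich in mitochondrial counts all 10 members differed with UM171, 7 higher and 3 lower. JUNB (0.55, adjusted p = 9.2e-07) and FOS (0.18, adjusted p = 0.035) were then higher and FOSL1, at 0.00 with all libraries, was lower (−0.29, adjusted p = 0.001). The share of all genes that differed without these 2 libraries was not counted, with DMSO or with UM171. The shares of 33.7% and 43% are for all libraries, so the counts without the 2 libraries have no background beside them.

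In sgEPCR cells FOSB went from 0.286% ± 0.0816 of the FOS family TPM with DMSO to 8.48% ± 1.25 with UM171 (SD, n = 3), and FOSL2 went from 63.1% ± 0.840 to 53.4% ± 1.41. JUND went from 52.4% ± 3.16 of the JUN family to 61.6% ± 3.92 and JUNB from 36.4% ± 3.38 to 21.2% ± 3.24. Shares are taken within a library, and the 2 libraries rich in mitochondrial counts held the largest JUND share of their groups, 56.1% and 66.1%.

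**Figure D4:**
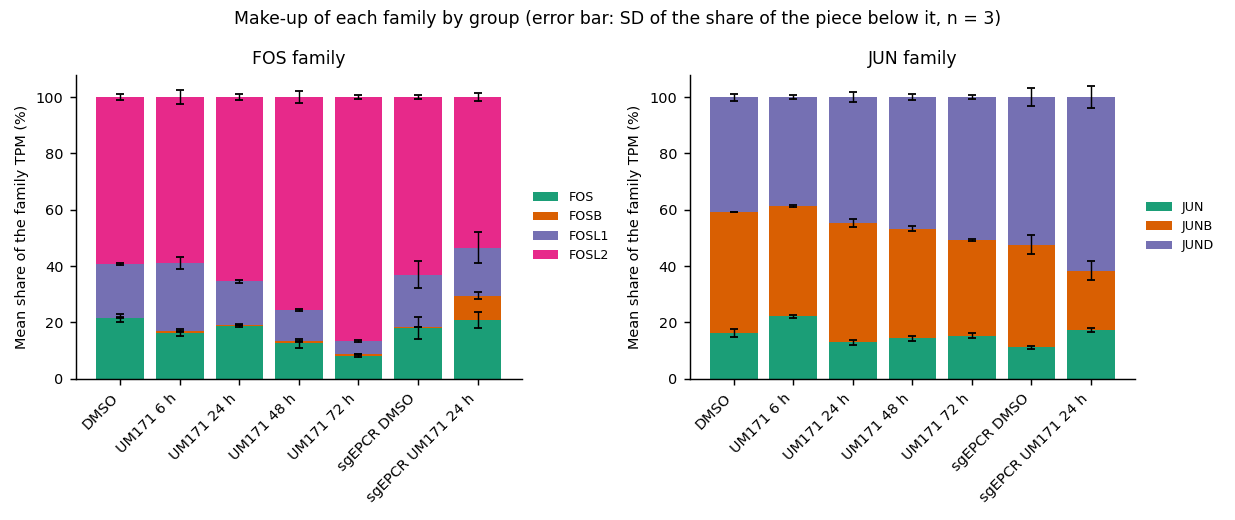
Mean share of each gene in the summed TPM of its family (y axis, %, error bars at the top of each piece are the SD of its share, n = 3) in the 7 groups (x axis). FOSL2 grows from 59.4% in DMSO to 86.6% at 72 h of UM171, and FOSB reaches 8.48% in sgEPCR cells with UM171.

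Other genes of the pathway were taken from lists chosen by known function, and their strict calls were counted at 48 h in control cells, against 11.7% of all genes called upward and 4.67% downward. Of 28 tested genes among 30 other immediate early genes, 9 rose and 2 fell, with a median of 0.48 beside 0.00 over all genes. The largest were EGR3 (adjusted p = 4.8e-12), an EGR1 relative with 3, 1 and 2 reads in DMSO and 653, 439 and 325 reads at 48 h, a ratio of 238 after scaling to the library totals (95% exact interval 109 to 651, counting error only), the survival gene IER3 (4.11, SE 0.14, adjusted p = 8.2e-14) and ZFP36L1 (4.04, SE 0.14, adjusted p = 8.2e-14), whose protein promotes mRNA decay. Of 8 tested among 12 other AP-1 family genes, MAFF (3.99, SE 0.16, adjusted p = 8.0e-13), a small MAF protein, and BATF3 (2.09, SE 0.13, adjusted p = 1.7e-10) rose. NAB2, a corepressor that binds EGR proteins and is induced by EGR1, rose by 2.78 (SE 0.20, adjusted p = 1.3e-09), and the other corepressor, NAB1, was not called. Of 21 upstream kinases and serum response factors 1 rose, the kinase RPS6KA5 (2.27, SE 0.09, adjusted p = 8.3e-13). Of 14 tested among 18 genes known as AP-1 targets 6 rose, with a median of 0.90, led by the secreted phosphoprotein SPP1 (6.58, SE 0.12, adjusted p = 6.5e-17) and the chemokines CCL2 (4.62, SE 0.14, adjusted p = 1.7e-14) and CXCL8 (3.28, SE 0.11, adjusted p = 8.4e-14).

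For the difference of the 24 h responses, 3.6% of all genes were called with a more positive and 4.17% with a more negative response in sgEPCR cells. Of the 28 other immediate early genes 7 were called, all more positive, with a median of 1.57 beside −0.02 over all genes. They were led by KLF2 (5.81, SE 0.27, adjusted p = 1.9e-07), a factor of quiescence, the nuclear receptor NR4A3 (5.70, SE 0.64, adjusted p = 4.8e-05) and the kinase SGK1 (3.09, SE 0.14, adjusted p = 1.6e-07). NR4A3 had only 6, 3 and 3 reads in sgEPCR DMSO and 317, 236 and 405 reads in sgEPCR UM171. Its ratio in sgEPCR cells was 78 after scaling to the library totals (95% exact interval 44.5 to 152, counting error only). KLF2 was at 119 TPM in sgEPCR UM171, 5.56 TPM in sgEPCR DMSO, 3.79 TPM in control UM171 and 11.7 TPM in control DMSO. Of 14 tested AP-1 targets 6 were more positive and 1, HMGA1 (−1.55, SE 0.15, adjusted p = 1.9e-05), more negative. The largest were LMNA (5.83, SE 0.42, adjusted p = 2.3e-06), which encodes lamin A, the protease PLAU (2.03, SE 0.23, adjusted p = 4.7e-05) and its receptor PLAUR (1.93, SE 0.12, adjusted p = 1.2e-06). LMNA differed also with DMSO, at 1.14 TPM in sgEPCR and 19.3 TPM in control cells. None of 9 tested other AP-1 family genes, 21 upstream kinases and factors or 2 corepressors was called in edgeR, where 4, 9 and 0 of them had an unadjusted p under 0.05 and DESeq2 called 1, 1 and 0. These counts depended on the processing. Without the 2 libraries rich in mitochondrial counts 16 of the immediate early genes were called upward, in DESeq2 15 and in limma 2. The share of all genes called under each alternative was not counted, so only the counts of the main fit have a background. Of the AP-1 targets, the 6 calls became 3 without DMSO replicate 2 or 3, UM171 24 h replicate 1 or 2 or sgEPCR DMSO replicate 3, 1 with total count scaling and 0 in limma. The call of HMGA1 was lost without any 1 of the 6 control libraries, with total count scaling and in limma.

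Over the 7 group means on the log2 CPM scale, the genes most like each member were found among 11831 genes, as a description over 7 points that share libraries. FOSB was most like BTG2 (Pearson r 0.992), MAP4 (0.990) and SPAG9 (0.988), JUND like SRGAP2 (0.991), JUN like DIP2A (0.983), JUNB like UBAP1 (0.974) and ATF3 like SLC28A3 (0.992). EGR1 was most like RAB8B (0.993), PJA2 (0.991) and LRP12 (0.990). FOS was most like FBXW5 (0.977), FOSL1 like RSC1A1 (0.999), FOSL2 like JDP2 (0.984) and BATF like MRPS23 (0.998). Among the members themselves, FOSB and JUND (0.92), FOSB and JUN (0.88) and JUN and ATF3 (0.85) were the most alike, and ATF3 and BATF (−0.85) the most opposed. The values of r for FOSB rest largely on sgEPCR UM171, where it was at 4.40 log2 CPM against −0.44 to 1.10 in the other groups.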

How the data were processed

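PolyA RNA of 21 OCI-AML5 libraries was sequenced from a stranded kit. The submitters' processing notes name CASAVA 1.8.2, Trimmomatic 0.35, STAR 2.5.1b and RSEM 1.2.28 with GRCh38, and the annotation used for these files is not given in the sources used here. The authors deposited, per library, RSEM expected counts and TPM. In expected counts a read that fits several genes is divided among them and nothing is normalised. TPM divides by effective length and scales each library to the same total. A larger part for 1 abundant class (mitochondrial genes) therefore leaves less for the others together, which need not lower every gene alike. Groups follow the labels.

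Expected counts were rounded, filtered with filterByExpr, scaled by TMM and tested with edgeR 4.0.16 (R 4.3.3), with Benjamini-Hochberg adjustment over all genes tested, in a fit of 15 libraries (time course) and one of 12 (genotypes). SE is the absolute log2 fold change over the square root of F. The procedure was tested on simulated data. DESeq2 1.42.0 and limma 3.58.1, other scalings, filters and library sets were alternatives. Totals of 24.3 to 51.5 M counts set the precision, and intervals cover counting error only. Promoters came from RefSeq (GRCh38.p14), and member coordinates likewise.

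All 10 members were named, with the 3 genes of largest change called per list at 48 h and for the difference of responses, and the genes most like each member. KLF2 and LMNA levels and the reads of EGR3 and NR4A3 were added after their values were seen. The members and lists were chosen with earlier results of these data known. Strict calls needed more than a 2-fold change with an adjusted p under 0.0001.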

Additional observations from a re-analysis of the deposited data

Results flagged for a closer look

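For 7 members the 24 h response to UM171 differed between sgEPCR and control cells by edgeR's test of the difference at an adjusted p under 0.05, in a background where 45% of all genes did. Genotype and time in DMSO cannot be told apart here, because the DMSO groups differ in labelled time. The difference, sgEPCR minus control on the log2 scale, was 4.63 for FOSB, 2.76 for ATF3, 2.43 for JUN, 1.55 for JUND, 0.71 for JUNB, 0.58 for FOS and −0.58 for BATF. For FOSB, ATF3, JUN and JUND, TPM was higher with UM171 in each of the 3 sgEPCR libraries than in any sgEPCR DMSO library. For FOS the groups overlapped in TPM in sgEPCR cells. For BATF and JUNB they also overlapped, through the libraries with 35.9% and 32.2% mitochondrial counts, and without these 2 libraries the differences were −0.53 for BATF, 0.78 for JUNB and 0.63 for FOS. The difference of FOS passed in 1 of 12 fits without a single library and that of JUNB in 4 of 12, and with total count scaling neither passed (adjusted p = 0.22 and 0.17). Groups of 3 libraries were not tested for outlying libraries.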

How the results depend on the processing

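Counts of members past the strict call changed as follows. At 6 h the count of 2 became 1 with limma on log2(TPM + 1), upper quartile scaling, total count scaling or at least 10 counts in every library, and from 48 to 72 h the count of 1 became 0 with these 4 and with all 21 libraries in 1 fit. Without a filter on low counts 2 were called at 48 h and 2 from 24 to 48 h. With limma the sgEPCR response held 2, and the genotype comparison in UM171 and the difference of responses held 0; with total count scaling these last 2 held 1 and 2. Leaving out single libraries gave 1 to 2 at 6 h and 0 to 2 from 48 to 72 h, and other counts stayed within 1.5 times. At an adjusted p under 0.05 alone the counts were 8, 8, 10 and 9 at 6, 24, 48 and 72 h, 8, 9 and 8 for the 3 steps, 8 for the sgEPCR response, 3 and 7 for the genotypes in DMSO and UM171, and 7 for the difference, and with a 2-fold minimum 2 at 48 h and 2 from 24 to 48 h. For the 3 steps, and with the 2-fold minimum, the share of all genes at this limit was not counted, so those counts have no background. In the time course same-numbered libraries did not vary together (r from −0.35 to 0.38). In sgEPCR cells their r ran from −0.90 to 0.83 and followed the 2 libraries rich in mitochondrial counts. These 2 carry different numbers and had r 0.91 with each other, so this check cannot show or exclude pairing by clone. The numbers were not taken as pairs, and the labels do not say whether they mark clones. With the replicate block the sgEPCR response held 1 strict call, and the genotypes in UM171 and the difference of responses 0 each, with FOSL1 at 0.16 between genotypes in DMSO.

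Signs turned for the following log2 values. FOSB at 6 h was 0.04 in limma, FOSB at 24 h −0.01 with upper quartile scaling and 0.00 without mitochondrial genes (−0.19 to 0.24 without single libraries), and JUN at 6 h 0.13, 0.06, 0.15 and 0.02 with limma, upper quartile, total count scaling and the 10-count filter. In limma JUND was −0.23 between genotypes in DMSO, and FOS and FOSL1 −0.19 and −0.24 in UM171. In UM171 FOS and FOSL1 were also −0.06 and −0.17 with total count scaling and −0.02 and −0.04 without a filter, and FOSL1 −0.01 with all 21 libraries and −0.29 without the 2 libraries. Without single libraries FOSL1 ranged from −0.53 to 0.13 between genotypes in DMSO, −0.30 to 0.13 in UM171 and −0.22 to 0.52 for the difference, and FOS from −0.08 to 0.17 in UM171 and −0.07 to 0.19 for the sgEPCR response. The cause of these turns was not tested. Of 1716 alternative values of single members, 1565 kept direction and side of the 0.05 limit, 87 lost it, 29 gained it and 35 turned, and of 390 list counts 36 moved by over 1.5 times, most of them for the difference of responses. With counts in place of TPM, which favours long transcripts, FOSL2 held 85.4%, 96.2%, 86.3% and 77.9% of its family in DMSO, at 72 h, in sgEPCR DMSO and in sgEPCR UM171, and JUND 35.5%, 44.7%, 47.8% and 53.2% of its family. All 10 members passed the filter, so no exact permutation test was needed. Low reads limit FOSB in all groups but sgEPCR UM171.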
